A study of Sus scrofa with 12 samples.

Results

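The change in longissimus dorsi, the muscle that runs along the spine and gives the loin, between 3 and 60 days after birth was described in Meishan pigs, a Chinese breed, with the 3 arrays titled 3 days against the 3 titled 60 days. These 6 arrays are part of a series of 12, whose other arrays are 3 of fetal muscle at 65 days post coitus and 3 of muscle at 120 days after birth. All animals were kept under ordinary commercial conditions and killed at a slaughterhouse, the muscle was frozen in liquid nitrogen, and RNA was labelled with biotin for 1 Affymetrix porcine array per sample. Fetuses carried by the same sow counted as 1 individual, and the fetal and 120-day arrays served to estimate the spread and are quoted as levels only. The labels describe the 3 samples of a stage as biological replicates and give neither sex nor litter. They give ages and do not say which pigs were suckling or weaned. In extracted tissue, fewer cells of a type and less RNA per cell cannot be told apart.

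Pig muscle is still immature at birth. In the following weeks fibres thicken without increasing much in number, neonatal and heart-type contractile proteins give way to adult forms, and the growth factors of the fetus recede. Newborns live on milk, which is rich in fat, and later feed is rich in starch. Muscle fuel use follows the balance of fatty acid oxidation in mitochondria and of glycolysis in the cytosol, under hormones such as glucocorticoids, thyroid hormone and insulin.

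Each array gave 1 intensity per probe set, on a linear scale on which the array medians lay between 49.1 and 52.6. Of 23999 probe sets without controls, 16166 passed the filter on dim values, and 5765 genes had at least 1 of these under a single symbol. A gene is represented below by its probe set with the highest mean over the 12 arrays. Muscle was recognisable at both ages: 12 of 15 listed genes of skeletal muscle identity were measured, and their summed intensity was 68073 to 77363 at 3 days and 71094 to 82162 at 60 days. 60 days replicate 1 stood apart from the 2 other 60-day arrays on some measures and not on others. It lay at -36.8 on the second principal component, where they lay at 7.11 and -7.95 and 3 days replicate 3 at 38.3. The array weight from limma was 0.442 for 60 days replicate 1, and 0.463 and 1.10 for replicates 2 and 3. Its 3-prime to 5-prime ratio on 1 pair of actin controls was 6.18, against 5.27 and 3.85 on the other 60-day arrays, 2.58 to 4.69 at 3 days and up to 5.96 at 120 days, and on another pair it was 0.880, against 0.904 and 0.895 at 60 days and 0.863 to 0.906 at 3 days. On 1 pair of gapdh controls it lay between the other 60-day arrays, at 0.955 against 0.963 and 0.944. On another it lay below both, at 0.999 against 1.03 and 1.03. A range given after a list's median, in brackets, is that of the median over the 12 fits with 1 array left out.

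In all, 247 of 16166 probe sets (1.53%) passed limma's test at an adjusted p under 0.05, which is what "called" means below. Of these 127 (0.786%) were higher and 120 (0.742%) lower at 60 days, and the change was 2-fold or more for 147. Before adjustment 2680 (16.6%) had a p under 0.05. Among the 5765 genes, 87 (1.51%) were called, 41 higher (0.711%) and 46 lower (0.798%), and 60 of them by at least 2-fold. Of the genes, 16.8% had an unadjusted p under 0.05, the share to hold against the counts at that level given for lists below. The 3-day and 60-day intensities did not overlap for any of the 87, and they did not overlap for 20.8% of all genes, 8.93% higher and 11.9% lower. The median log2 change of all genes was -0.03. Of the 87 called genes 53 were in none of the 41 lists of genes examined. Of 933 measured list members 12 were called higher and 22 lower, and 35 genes were in more than 1 list. The counts of called members given for lists below are to be held against the 0.711% higher and 0.798% lower of all genes.

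**Figure D1:**
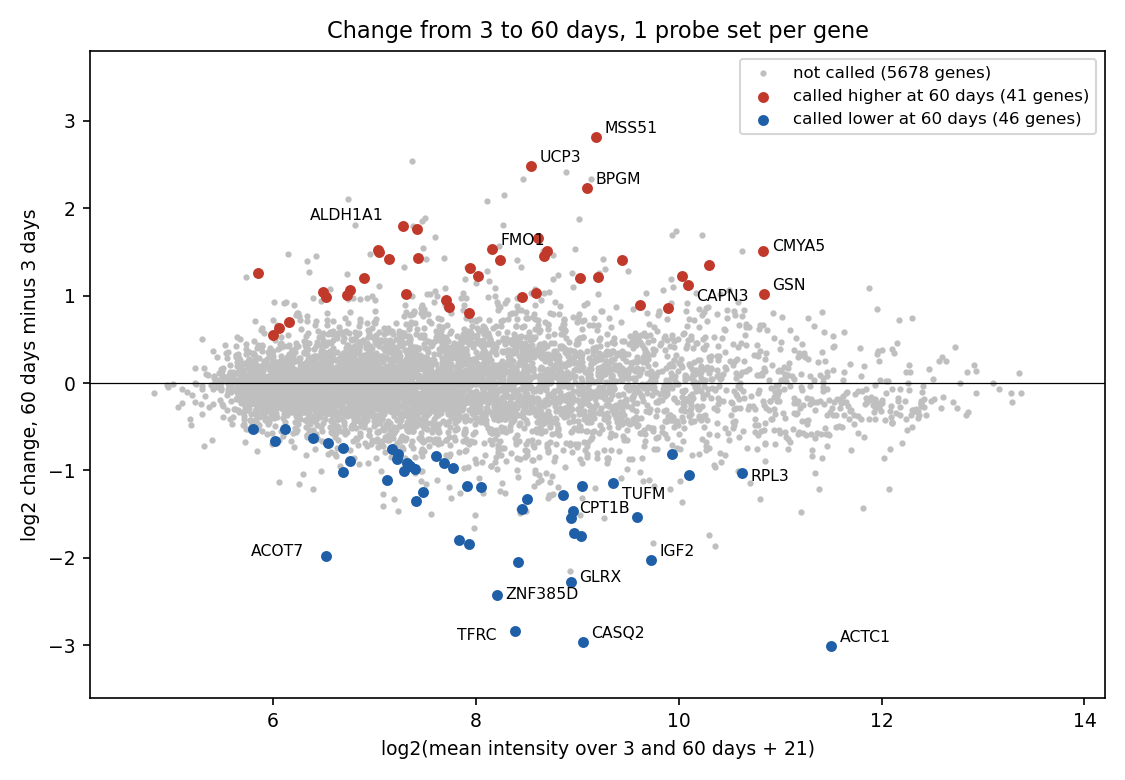
Log2 change from 3 to 60 days (vertical axis) against log2 of the mean intensity plus 21 over both ages (horizontal axis), 1 point per gene. The 41 genes called higher are red, the 46 called lower are blue and the others are grey. ACTC1, CASQ2 and TFRC have the largest called falls and MSS51, UCP3 and BPGM the largest called rises.

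These counts rested on few arrays. Without 3 days replicate 1, or without 3 days replicate 2, 75 probe sets were called, without 60 days replicate 1 there were 91, and with only the 6 arrays compared, which leaves the spread to be estimated from those alone, 39. Without 120 days replicate 1 or 2, which enter only the estimate of the spread, there were 151 and 154. Centred on the hybridization controls, calls split into 61 rises and 139 falls, so that rises made up 30.5% where they had been 51.4%, with the median of all probe sets at -0.09. With only the 6 arrays compared, 5 of the 87 called genes kept the call and 82 lost it. Of the 87 genes, 12 were called in each of the 12 fits with 1 array left out. They were ACTC1, CASQ2, ZNF385D, IGF2, ACOT7, TUFM, MIPEP, BCS1L and LOC102157641, which fell, and CAMK2G, FMO1 and STAMBPL1, which rose. Of the 87, the fit without 3 days replicate 1, 2 or 3 kept 18, 22 and 56, that without 60 days replicate 1, 2 or 3 kept 20, 44 and 45, that without 120 days replicate 1, 2 or 3 kept 54, 50 and 63, and that without fetal replicate 1, 2 or 3 kept 66, 83 and 83. For the other genes the number of those 12 fits that kept the call is given, with the range of limma's adjusted p over them.

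The largest called falls were those of ACTC1 and CASQ2, both known from the heart. ACTC1, the alpha-actin of heart and of immature skeletal muscle, read 6910.1, 5539.8 and 2901 on the 3-day arrays and 764, 896 and 278 on the 60-day arrays, in the order of replicates 1 to 3. Every 60-day value was below every 3-day value, and the change was -3.01 ± 0.40 (log2 with its SE, adjusted p = 0.00506, 0.00400 to 0.0292 with 1 array left out). CASQ2, the calsequestrin that stores calcium in heart and slow fibres, read 1232, 874 and 634 and then 201, 69.2 and 55.7, with the highest 60-day value on replicate 1. It changed by -2.97 ± 0.40 (adjusted p = 0.00549), and its 1 other probe set was called lower too. Their 120-day means were lower than those at 60 days, ACTC1 at 219 ± 18.7 and CASQ2 at 31.6 ± 8.55 (mean with SD, n = 3). In the list of developmental and cardiac contractile genes these were the 2 called of 11 measured, 10 members had a negative change, and the median was -0.36 [-0.48 to -0.22]. TNNT2, cardiac troponin T, and MYL4, the light chain of embryonic and atrial myosin, had values of -0.46 ± 0.30 and -0.36 ± 0.22 that did not pass the test (adjusted p = 0.491 and 0.453). They were already dim at 3 days, at 48.8, 72.3 and 18.3 and 58.0, 75.2 and 42.1, where the fetal means were 875 ± 252 and 2675 ± 581.

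The adult fibre genes gave little that passed the test. MYH2, the myosin heavy chain of fast oxidative fibres, read 7060.2, 5852 and 4571 at 3 days and 8007, 7360.4 and 7639 at 60 days. The ages did not overlap, but the change of 0.42 ± 0.18 did not pass (adjusted p = 0.267). MYH7, the slow myosin heavy chain, read 3563, 3938 and 4375 and 4798, 4348 and 3178, with overlap. Of 8 fast-fibre genes, 9 slow-fibre genes and 25 genes of sarcomere structure and the Z-disc, 0 were called by limma, with 1, 2 and 2 at an unadjusted p under 0.05. Their medians were -0.11 [-0.19 to -0.069], -0.23 [-0.30 to -0.19] and 0.13 [0.082 to 0.24]. CMYA5, myospryn, which is bound to the costameres and the Z-disc region of striated muscle, did rise. It read 712, 1068 and 1024 and then 2870.2, 2390.3 and 2762, so that the lowest 60-day array was well above the highest 3-day array. The change was 1.51 ± 0.24 (adjusted p = 0.0107), lost only without 3 days replicate 1 (0.0506).

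Of 15 genes of calcium handling 1 rose and 1 fell, CASQ2 being the latter. CAMK2G, the gamma chain of a calmodulin-dependent kinase, read 191, 227 and 99.3 and then 494, 538 and 666, with no overlap, and rose by 1.66 ± 0.27 (adjusted p = 0.0133). Its 1 other probe set was called higher as well. The list's median was 0.08 [-0.11 to 0.33], and it was -0.01 when centred on the hybridization controls. RYR1, the calcium release channel, and ATP2A1, the calcium pump of fast fibres, had changes of 0.61 and 0.33 ± 0.33 that did not pass, though neither overlapped between the ages. Other called genes near this function were named after their values were seen. HOMER2, a scaffold protein that binds calcium channels, read 926, 557 and 659 and then 242, 343 and 315 and fell by 1.18 on the log2 scale, a call kept in 4 of the 12 fits (adjusted p 0.0330 to 0.145). MCUR1, a regulator of the mitochondrial calcium uniporter, read 142, 219 and 318 and then 52.3, 89.2 and 77.4, a fall of 1.35 on the log2 scale, kept in 8 of 12 (adjusted p 0.0197 to 0.0931).

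IGF2 and PEG10, growth genes of the fetus, fell. IGF2, the insulin-like growth factor of fetal life, read 772, 1768 and 1525 at 3 days and 322, 272 and 305 at 60 days. The 60-day arrays were close together and the 3-day arrays were not, with replicate 1 the lowest, and the change was -2.02 ± 0.29 (adjusted p = 0.00681). Its 11 probe sets all had a negative change, 8 of them called, and they ranged from -2.25 to -0.07. PEG10, an imprinted gene of the placenta and embryo, read 302, 427 and 251 and then 43.9, 58.2 and 161, with 60 days replicate 3 the nearest to the 3-day arrays. It changed by -1.80 ± 0.35 (adjusted p = 0.0282), and its call was lost without 3 days replicate 1 or 2, 60 days replicate 1 or 2, or 120 days replicate 1 (adjusted p 0.00908 to 0.113 over the 12 fits). In the fetus it had averaged 3319 ± 653. These were the 2 of 10 imprinted and fetal growth genes that were called, 7 had a negative change, and the median was -0.25 [-0.38 to -0.20]. MEG3, a maternally expressed long RNA, and PLAGL1, a paternally expressed zinc finger gene, had changes of -0.66 ± 0.24 and -0.82 that did not pass, and GRB10, an adaptor that restrains insulin signalling, one of 1.28 that did not pass.

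Of 13 genes of the insulin-like growth factor axis, IGF2 was the only one called, and the list's median was -0.14 [-0.18 to -0.016, nearest 0 without 3 days replicate 1]. GHR, the growth hormone receptor, read 123, 171 and 183 and then 323, 543 and 205, with no overlap, and at 0.99 ± 0.30 missed the threshold (adjusted p = 0.119). IGF1, the growth factor that growth hormone induces, had probe sets that disagreed. The brightest read 98.3, 98.9 and 79.3 and then 115, 90.1 and 103, with no call, and another, at 65.3, 95.2 and 79.9 and then 38.4, 17.9 and 35.3, was called lower (-0.99, adjusted p = 0.0248). MSTN, myostatin, which restrains muscle growth, ranged from 14.6 to 80.6 at 3 days and from 26.1 to 257 at 60 days. Of 10 myogenic regulators 0 were called, with 2 at an unadjusted p under 0.05.

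In the list of fatty acid uptake and oxidation CPT1B, ACOT7 and ECI1 fell and UCP3 rose. CPT1B, the muscle enzyme that commits fatty acids to entry into mitochondria, read 646, 739 and 700.1 at 3 days and 166, 380.3 and 178 at 60 days. The 3-day arrays were tightly grouped, and among the 60-day arrays replicate 2 was the highest without reaching them. The change was -1.54 ± 0.26 (adjusted p = 0.0167), lost without 3 days replicate 1 or 2 or 60 days replicate 1 (adjusted p 0.00167 to 0.0644). ACOT7, a cytosolic thioesterase that splits acyl-CoA, read 119, 90.2 and 168 and then 15.1, 12.6 and 19.02 (-1.98 ± 0.20, adjusted p = 0.00165), and all 3 60-day values lay below 21.4, the 25th percentile of all values on the 12 arrays. ECI1, an isomerase of unsaturated fatty acid oxidation in mitochondria, read 1229, 1654 and 1483 and then 524, 787 and 787 and changed by -1.05 ± 0.23, kept in 2 of 12 fits (adjusted p 0.0324 to 0.158). ACOT6, another thioesterase of the acyl-CoA family, changed by -1.53 ± 0.27 (adjusted p = 0.0208), kept in 9 of 12 (adjusted p 0.0116 to 0.0893), and its 1 other probe set had the opposite sign.

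UCP3, the uncoupling protein of the muscle mitochondrial membrane, went the other way. It read 75.5, 49.5 and 152 and then 411, 454 and 971, with replicate 3 the highest at both ages and no overlap. The rise was 2.48 ± 0.41 (adjusted p = 0.0138), lost without 3 days replicate 1 or 2 (adjusted p 0.0106 to 0.0622), the 120-day mean was 194 ± 112, and its 1 other probe set did not pass (1.14, adjusted p = 0.0747). Of 34 genes of fatty acid uptake and oxidation 1 rose and 3 fell, against 0.711% and 0.798% of all genes, 22 had a negative change and 12 did not overlap and were lower, as 11.9% of all genes were, with a median of -0.18 [-0.38 to -0.15, lowest without 60 days replicate 2]. FABP3, the fatty acid binding protein of heart and muscle, read 3799, 3132 and 3323 and then 795, 1465 and 1533, and its change of -1.47 did not pass (adjusted p = 0.0567). PDK4, the kinase that shuts pyruvate out of the mitochondrion, and PPARGC1A, a coactivator of mitochondrial genes, did not pass either (0.38 ± 0.46 and 1.50 ± 0.61). PPARGC1A read 293, 267 and 1257 at 60 days, of which replicate 3 was far above the rest.

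**Figure D2:**
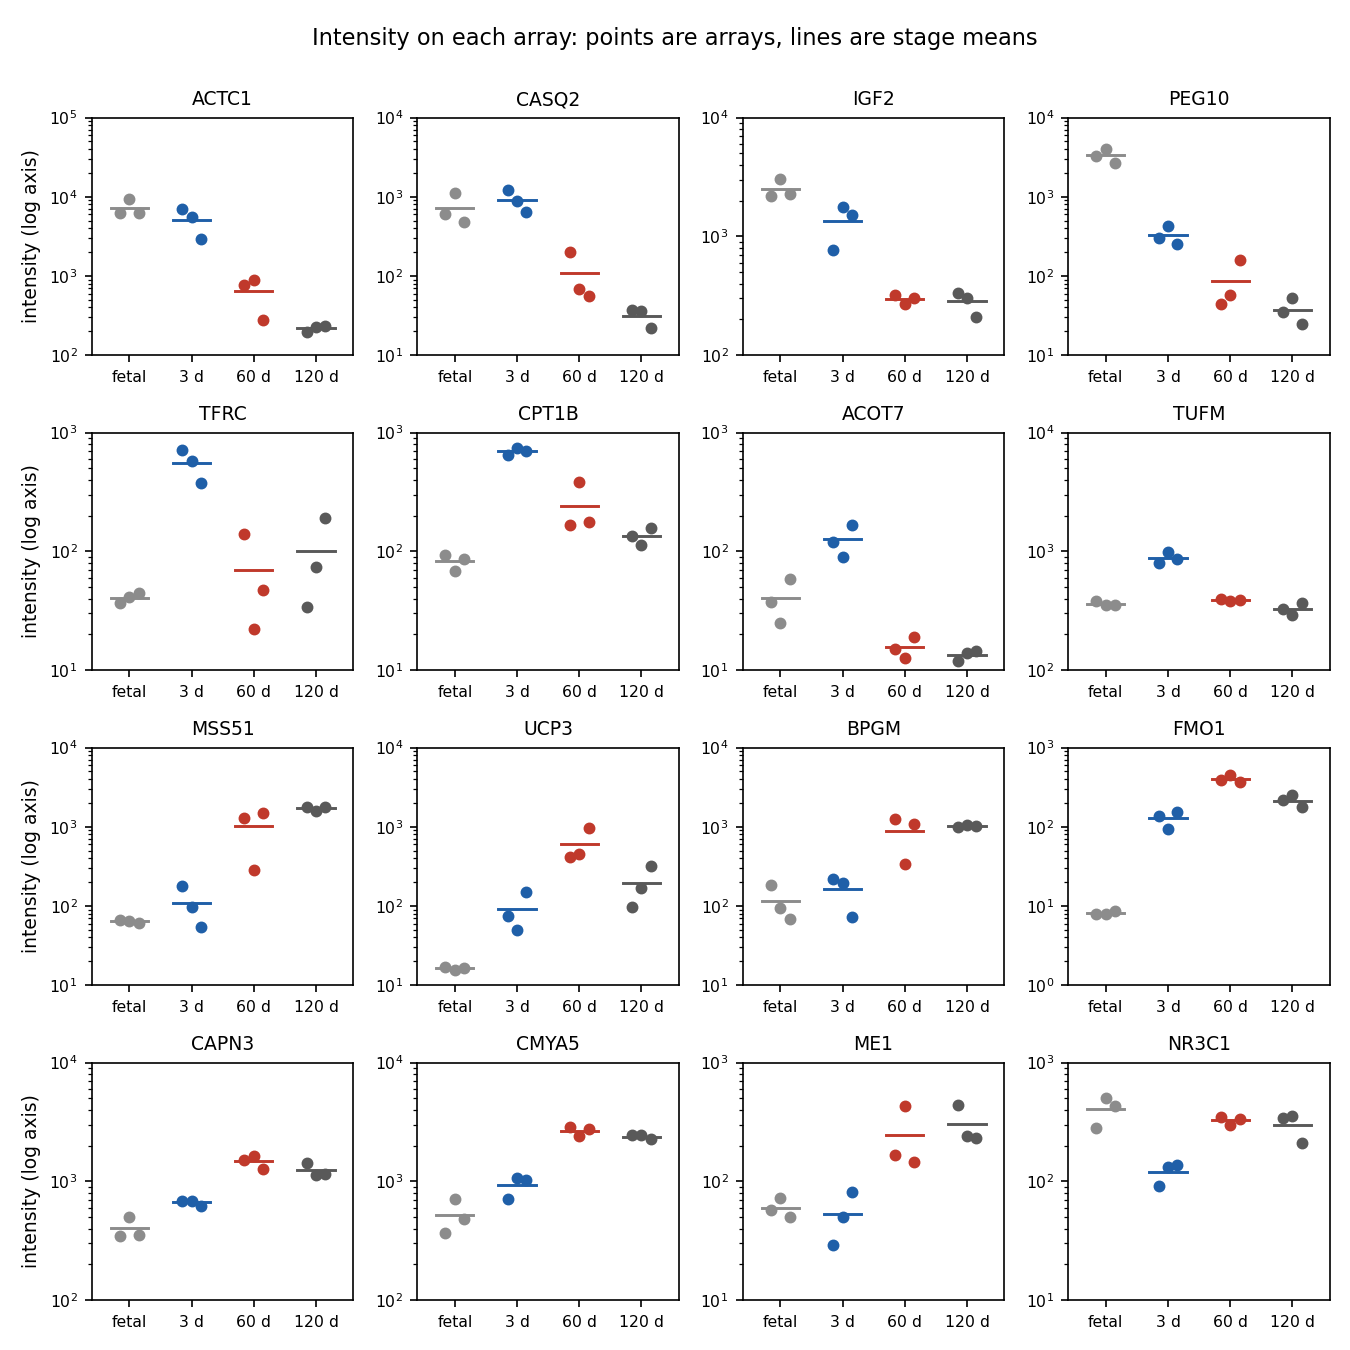
Intensity (log axis, 1 panel per gene) on each of the 12 arrays by stage: fetal, 3, 60 and 120 days. Points are arrays and lines are stage means, and for all 16 genes the 3-day and 60-day points do not overlap, with the 8 genes of the upper panels lower and the 8 of the lower panels higher at 60 days.

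Of 77 measured genes of the mitochondrial ribosome and protein import 4 fell and 0 rose, against 0.798% and 0.711% of all genes, 28 reached an unadjusted p under 0.05, 75 had a negative change and the median was -0.48 [-0.63 to -0.28]. TUFM, the elongation factor that brings tRNA to the mitochondrial ribosome, read 794, 984 and 867 and then 394, 381 and 387, an even fall on all arrays (-1.14 ± 0.17, adjusted p = 0.00778). MRPL2 and MRPS12, proteins of the large and small mitochondrial ribosomal subunits, changed by -1.28 ± 0.25 and -1.17 ± 0.26 (adjusted p = 0.0302 and 0.0429). TIMM44, which anchors the import motor at the inner membrane, changed by -0.84 ± 0.16 (adjusted p = 0.0248). These last 3 calls were kept in 6, 5 and 8 of the 12 fits (adjusted p 0.0221 to 0.133, 0.0278 to 0.162 and 0.0222 to 0.0990), and each gene had another probe set called lower. Without 60 days replicate 1 the list had 64 negative changes and a median of -0.28, and only TUFM was called.

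Further called falls in the mitochondrion lay outside that list and, apart from PPIF, were named after their values were seen. MIPEP, a peptidase that trims imported proteins, read 147, 191 and 172 and then 63.8, 69.2 and 69.8 (-1.10 ± 0.12, adjusted p = 0.00223). BCS1L, a chaperone that assembles respiratory complex III, read 194, 222 and 193 and then 78.1, 96.6 and 103 (-0.99 ± 0.14, adjusted p = 0.00609). In both genes each 60-day array lay far below the lowest 3-day array. PPIF, cyclophilin D of the permeability transition pore, fell by 1.44 on the log2 scale, PDSS1, an enzyme that makes the side chain of coenzyme Q, by 0.97, SFXN4, a sideroflexin, by 0.92 and TAMM41, an enzyme of cardiolipin synthesis, by 0.76. These were called in 8, 4, 10 and 9 of the 12 fits (adjusted p 0.00560 to 0.113, 0.0262 to 0.150, 0.0195 to 0.0716 and 0.0267 to 0.107).

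Subunits of the respiratory chain had mostly negative changes without a call. Of 60 measured genes of oxidative phosphorylation 57 had a negative change, with a median of -0.43 [-0.61 to -0.17], 0 were called by limma and 13 reached an unadjusted p under 0.05, all lower. The typical member lay 1.07 below its 3-day mean on 60 days replicate 1, but 0.20 and 0.11 below it on replicates 2 and 3. Without that array 44 of 60 had a negative change and the median was -0.17. The 2 brightest members, ATP5A1 and ATP5B, had changes of -0.47 to -0.079 and -0.50 to -0.22 over the 12 fits with 1 array left out. COX7A2, a subunit of cytochrome oxidase, was named after its values were seen and had the lowest change of the list. It read 2149.6, 1867 and 1517 and then 206, 1024 and 688 and its -1.74 ± 0.48 did not pass (adjusted p = 0.0992). NDUFA1, a subunit of complex I, was not called on its brightest probe set (-0.64), and on another it read 226, 347 and 341 and then 131, 53.3 and 79.9 and was called lower (-1.62, adjusted p = 0.00803). In the tricarboxylic acid cycle 16 of 24 genes had a negative change, 0 were called by limma and 2 reached an unadjusted p under 0.05, both higher (median -0.26 [-0.31 to -0.17]).

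**Figure D3:**
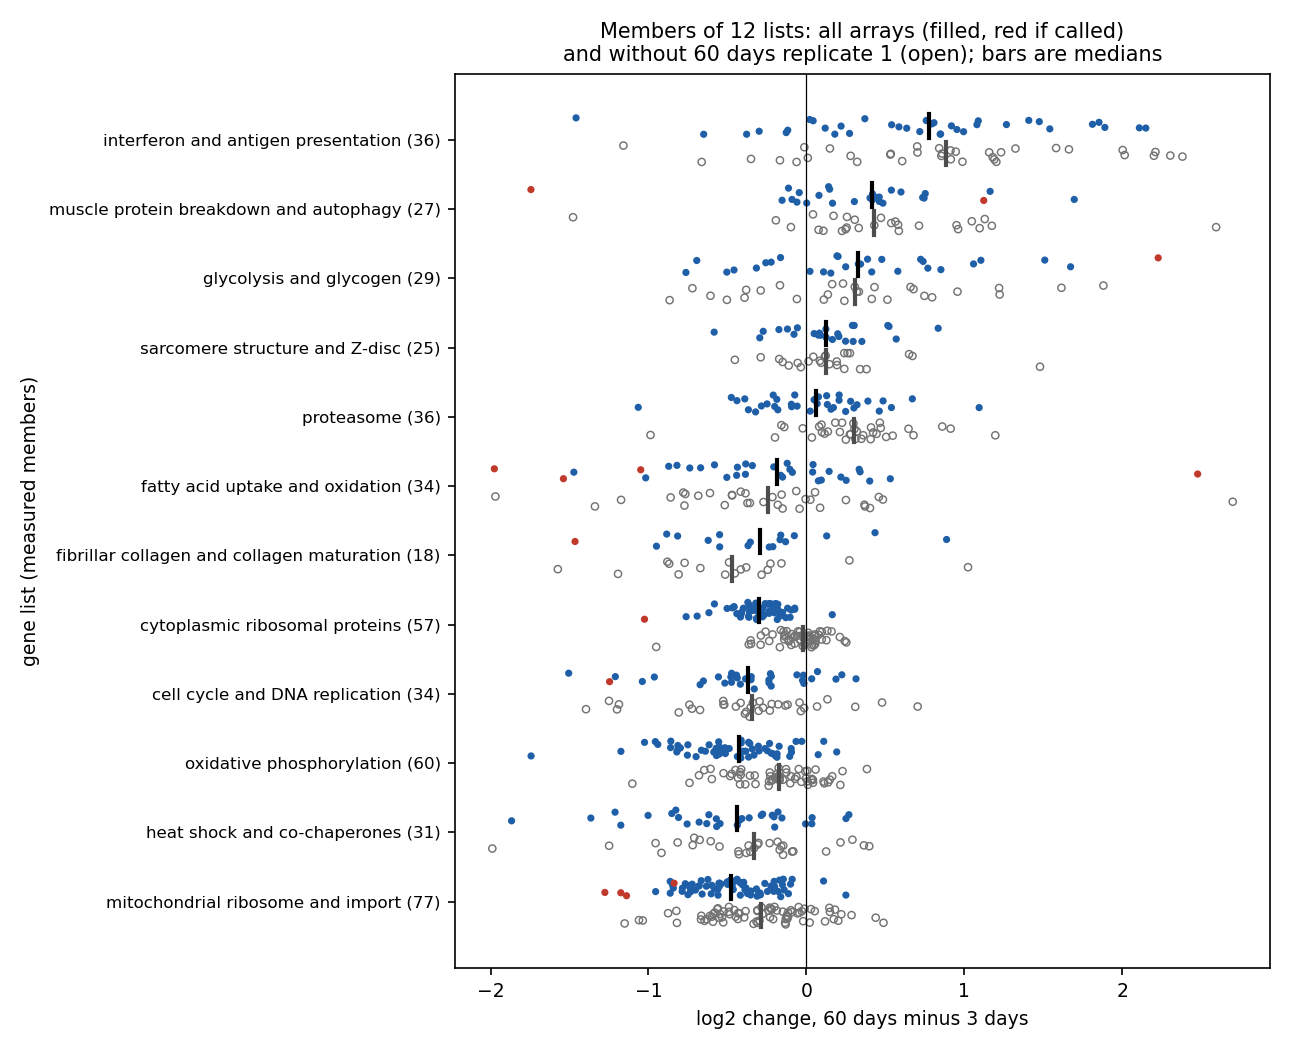
Log2 change from 3 to 60 days (horizontal axis) of each measured member of 12 gene lists. Filled points use all arrays, red where the gene was called, and open points leave out 60 days replicate 1. Short bars are medians: leaving out that array moves the cytoplasmic ribosomal proteins from -0.30 to -0.02 and oxidative phosphorylation from -0.43 to -0.17, and the interferon list from 0.78 to 0.89.

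Among genes of sugar use, BPGM was called higher. It makes 2,3-bisphosphoglycerate and has a weak phosphoglycerate mutase activity. It read 217, 197 and 72.9 at 3 days and 1263, 337 and 1068 at 60 days, with 60 days replicate 2 the nearest to the 3-day arrays. The rise was 2.23 ± 0.48 (adjusted p = 0.0423), but it was called in only 3 of the 12 fits (adjusted p 0.00959 to 0.138), those without fetal replicate 1, fetal replicate 3 or 60 days replicate 2. In the list of glycolysis and glycogen it was the 1 called of 29, 21 had a positive change and 11 did not overlap and were higher, as 8.93% of all genes were, with a median of 0.33 [0.20 to 0.40] (0.31 without 60 days replicate 1). PYGM, muscle glycogen phosphorylase, PFKM, muscle phosphofructokinase, PHKB, a subunit of phosphorylase kinase, and FBP2, muscle fructose bisphosphatase, were named after their values were seen, had changes of 0.74 ± 0.25, 0.85 ± 0.32, 1.06 ± 0.31 and 1.51 ± 0.45 and did not pass (adjusted p = 0.156, 0.202, 0.108 and 0.119). All 4 read higher on every 60-day array than on any 3-day array.

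SLC2A4, the insulin-responsive glucose transporter, read 34.9, 57.4 and 101 and then 128, 215 and 130.3, with no overlap. Its change of 1.11 ± 0.26 missed the threshold (adjusted p = 0.0592). Its 1 other probe set went the opposite way, at 117, 109 and 108 and then 72.7, 80.2 and 70.6, also with no overlap and no call (-0.47, adjusted p = 0.109). SLC2A12, another glucose transporter of muscle and fat, was named after its values were seen and called higher at 1.04 ± 0.21 (adjusted p = 0.0297), from 35.3, 47.5 and 28.2 to 127, 60.8 and 115, a call kept in 6 of the 12 fits (adjusted p 0.00370 to 0.113). GPD2, the mitochondrial glycerol phosphate dehydrogenase that passes electrons from glycolysis to the respiratory chain, read 50.7, 60.9 and 82.1 and then 482, 144 and 215 and missed the threshold (adjusted p = 0.0525), and its 2 other probe sets had changes of 0.30 and 0.44. LDHA and LDHB, the lactate dehydrogenase chains of fast and of oxidative tissue, had changes of 0.25 ± 0.21 and -0.46 ± 0.24, and neither passed.

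MSS51, a muscle gene named for a yeast factor of cytochrome oxidase translation, had the largest called rise among the brightest probe sets of genes. It read 177, 95.8 and 53.6 and then 1287, 284 and 1478, so that 60 days replicate 2 lay between the 3-day arrays and the 2 other 60-day arrays. The change was 2.81 ± 0.50 (adjusted p = 0.0208), lost without 3 days replicate 2 or 60 days replicate 1 or 3 (adjusted p 0.00109 to 0.0715), and at 120 days it averaged 1702 ± 116. Malic enzyme, ME1, which supplies NADPH for fat synthesis, read 29.2, 50.2 and 81.2 and then 166, 430.1 and 146 and rose by 1.76 ± 0.37 (adjusted p = 0.0413). It was called in 5 of the 12 fits (adjusted p 0.0326 to 0.159), and its 1 other probe set was called higher. It was the 1 called of 22 genes of NADPH, lipid synthesis and desaturation, 13 of which had a negative change. FASN, fatty acid synthase, and SCD, stearoyl-CoA desaturase, had changes of -0.55 ± 0.24 and -1.12 ± 0.37 that did not pass.

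BCKDHB, a subunit of the complex that degrades branched-chain amino acids, read 209.6, 325 and 95.1 and then 536, 644 and 554. It rose by 1.51 ± 0.31 (adjusted p = 0.0343), kept in 4 of the 12 fits (adjusted p 0.0208 to 0.107). MUT, the methylmalonyl-CoA mutase that carries their products into the citric acid cycle, and ASL, argininosuccinate lyase, were named after their values were seen and rose by 0.95 and 0.63, kept in 2 and 3 of 12 (adjusted p 0.0246 to 0.131 and 0.0182 to 0.146). ADHFE1, a mitochondrial dehydrogenase of hydroxy acids, rose by 1.52 ± 0.29 (adjusted p = 0.0254), from 40.9, 68.5 and 30.2 to 119, 169 and 232, kept in 8 of 12 (adjusted p 0.0197 to 0.107). In the list of tRNA synthetases and amino acid supply, BCKDHB was the 1 called of 35, and 24 members had a negative change.

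FMO1, a flavin monooxygenase that oxidises drugs and amines, rose on every array, from 136, 92.7 and 153 to 391, 455 and 365 (1.53 ± 0.18, adjusted p = 0.00263). It had averaged 8.10 ± 0.391 in the fetus and stood at 214 ± 38.0 at 120 days. ALDH1A1, which makes retinoic acid from retinaldehyde, read 57.9, 47.9 and 38.4 and then 295, 174 and 196 (1.79 ± 0.30, adjusted p = 0.0135). Its call was lost without 3 days replicate 2 or 60 days replicate 1 (adjusted p 0.00865 to 0.0536), and its 1 other probe set was called higher. Against these, GLRX, glutaredoxin, which reduces glutathione-bound proteins, fell from 935, 840.1 and 578 to 77.8, 155 and 229.6 (-2.27 ± 0.43, adjusted p = 0.0248), lost without 3 days replicate 1 or 2 or 60 days replicate 1 (adjusted p 0.00865 to 0.108). They were the 3 called of 34 genes of antioxidant, retinoid and xenobiotic metabolism, a list with 18 positive and 16 negative changes. EPHX2, soluble epoxide hydrolase, named after its values were seen, rose by 1.01, kept in 10 of the 12 fits (adjusted p 0.0111 to 0.0539).

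The receptor of glucocorticoids, NR3C1, was higher at 60 days. It read 91.2, 132 and 138 and then 351, 297 and 336, so that the lowest 60-day array was well above the highest 3-day array. The change was 1.32 ± 0.25 (adjusted p = 0.0264), and of 3 further probe sets 2 rose. The call was lost without 3 days replicate 1 or 2 or 60 days replicate 1 or 3 (adjusted p 0.0248 to 0.125). The fetal mean was 405 ± 113, so that the 3-day mean was below it. It was the 1 called of 8 genes of thyroid and glucocorticoid signalling, 7 of which had a positive change (median 0.53 [0.27 to 0.66, lowest without 60 days replicate 2]). FKBP5, a chaperone that glucocorticoids induce, read 356, 590 and 1129 and then 1266, 1485 and 890, with overlap, and KLF9, a factor induced by both hormones, had values of 0.33 ± 0.25 and, on another probe set, -0.31, none of which passed. CAPN3, the calpain of skeletal muscle, read 684, 689.6 and 619 and then 1525, 1641 and 1270.0 and rose by 1.12 ± 0.20 (adjusted p = 0.0208), kept in 8 of 12 fits (adjusted p 0.0133 to 0.0804), and its 1 other probe set did not pass (1.14, adjusted p = 0.0901). TP53INP2, which activates autophagy, read 979.8, 796 and 581 and then 142, 289 and 238 and fell (-1.74 ± 0.37, adjusted p = 0.0423), kept in 6 of 12 (adjusted p 0.0230 to 0.156). Both belong to the list of protein breakdown and autophagy, where 21 of 27 genes had a positive change and the median was 0.42 [0.12 to 0.47, lowest without 60 days replicate 2]. Its FBXO32, the atrophy ubiquitin ligase, varied too much to compare, with 26.4, 61.2 and 2378 at 3 days and 176, 2488 and 625 at 60 days.

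The ribosomal protein genes of the cytosol depended on which 60-day arrays were used. Of 57 ribosomal protein genes 56 had a negative change with a median of -0.30 [-0.48 to -0.023], but the score of the list was -0.83 on 60 days replicate 1 and 0.04 and -0.10 on the other 60-day arrays. Without that array 34 had a negative change and the median was -0.02. RPL3, a protein of the large subunit at its catalytic centre, was the 1 called. It read 1611, 1828 and 2895 and then 895, 1039 and 1055, a change of -1.02 ± 0.22 (adjusted p = 0.0423) that was also -0.95 without 60 days replicate 1, though it was called in only 2 of the 12 fits (adjusted p 0.0430 to 0.108). Translation factors and genes of ribosome assembly had 0 of 50 called by limma and 9 at an unadjusted p under 0.05 (median -0.05 [-0.15 to 0.086]). The proteasome list had 0 of 36 called by limma and 2 at an unadjusted p under 0.05. Its score was 0.78 on 60 days replicate 2 and -0.49 and -0.22 on replicates 1 and 3, and its negative changes went from 16 to 5 without 60 days replicate 1. AIMP2, a scaffold of the tRNA synthetase complex, METTL1, a tRNA methyltransferase, and CMSS1, a ribosome assembly factor, were named after their values were seen and fell by 1.33, 0.89 and 1.02, called in 9, 8 and 3 of the 12 fits (adjusted p 0.0236 to 0.110, 0.0135 to 0.0998 and 0.0304 to 0.135).

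NME1, a nucleoside diphosphate kinase, read 598, 326 and 664 and then 70.3, 116 and 146 and fell by 2.04 on the log2 scale (adjusted p = 0.0248), kept in 9 of the 12 fits (adjusted p 0.0118 to 0.107). It was the 1 called of 13 genes of creatine, phosphagen and adenine nucleotides. CKM, the muscle creatine kinase, read 8790.2, 8862 and 8633 and then 9141, 8321 and 8885, nearly level on all arrays.

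Genes of dividing cells had mostly negative changes, with 1 call. CCND2, a cyclin that drives entry into the cell cycle, read 250.0, 271 and 171 and then 76.8, 82.2 and 91.8 (-1.25 ± 0.26, adjusted p = 0.0340), kept in 6 of the 12 fits (adjusted p 0.0278 to 0.138). It had averaged 1069.5 ± 307 in the fetus. Of 34 genes of cell cycle and DNA replication it was the only one called, 29 had a negative change, 14 did not overlap and were lower, as 11.9% of all genes were, and the median was -0.37 [-0.39 to -0.28] (-0.35 without 60 days replicate 1, with 29 negative). UBE2C, a ubiquitin enzyme of mitotic exit, and TOP2A, the topoisomerase of dividing cells, had changes of -1.21 ± 0.28 and -1.04 ± 0.44 that did not pass (adjusted p = 0.0541 and 0.267). Against these, RBL2, a pocket protein that holds cells in quiescence, was called higher from 193, 217 and 295 to 523, 541 and 427 (1.03 ± 0.21, adjusted p = 0.0332), kept in 6 of 12 fits (adjusted p 0.0239 to 0.146). It was named after its values were seen.

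In chromatin, DNMT3A, a methyltransferase that sets new DNA methylation, read 172, 167 and 172 and then 83.2, 94.4 and 86.0, the 3 arrays of each age lying close together. It fell by 0.82 on the log2 scale (adjusted p = 0.0135), kept in 9 of the 12 fits (adjusted p 0.0107 to 0.0575). HMGN1, a nucleosome-binding protein, also fell by 0.82 (adjusted p = 0.0423), kept in 2 of 12 (adjusted p 0.0376 to 0.133). They were the 2 called of 17 genes of histones and chromatin (median -0.21 [-0.21 to -0.12, and -0.13 without 60 days replicate 1]). PRRX1, a homeobox factor of mesenchymal cells, named after its values were seen, fell by 0.74, kept in 8 of 12 (adjusted p 0.00856 to 0.0990).

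In the matrix, SERPINH1, the chaperone of newly made collagen, fell from 770.0, 467 and 865 to 274, 129.5 and 345 (-1.46 ± 0.32, adjusted p = 0.0463), kept in 3 of the 12 fits (adjusted p 0.0362 to 0.161). Of 18 genes of fibrillar collagen and its maturation it was the only one called, 15 had a negative change, and the median was -0.29 [-0.47 to -0.25, lowest without 60 days replicate 1]. COL5A1, a collagen chain that regulates fibril width, and P4HA2, a prolyl hydroxylase of collagen, had changes of -0.95 and -0.88 that did not pass, and the 4 other probe sets of COL5A1 ranged from -0.70 to 0.070. Of 32 other matrix genes 0 were called by limma and 2 had an unadjusted p under 0.05.

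Heat-shock genes had mostly negative changes without a call on their brightest probe sets. Of 31 measured heat-shock and co-chaperone genes 27 had a negative change, 8 reached an unadjusted p under 0.05, all lower, and 0 were called by limma (median -0.44 [-0.58 to -0.33], and -0.33 without 60 days replicate 1). CRYAB, alphaB-crystallin, which guards the Z-disc, read 6004, 5059.6 and 6139 and then 1157, 2906 and 4383, with no overlap and 60 days replicate 1 the lowest (adjusted p = 0.145). HSPB6, another small heat-shock protein of muscle, read 490.3, 504 and 485 and then 138, 362 and 173. It missed the threshold (adjusted p = 0.0517), and its 1 other probe set was called lower (-0.80, adjusted p = 0.0332). HSP90B1, a chaperone of the endoplasmic reticulum, likewise missed it at -1.002 ± 0.258 and had another probe set called lower (-1.26, adjusted p = 0.0343). HSPBP1, a regulator of HSP70 outside the list, fell by 0.63, called in 3 of 12 fits (adjusted p 0.0266 to 0.159). HSPH1 and DNAJA1 had changes of -1.87 ± 0.51 and -1.36 ± 0.41 and did not pass, and these members were named after their values were seen.

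TFRC, the receptor through which cells take up iron-loaded transferrin, fell. It read 715, 578 and 379 at 3 days and 140.4, 22.4 and 47.7 at 60 days, with no overlap. It changed by -2.84 ± 0.49 (adjusted p = 0.0178), lost without 3 days replicate 1 or 2 (adjusted p 0.0102 to 0.0811). Its fetal mean was 40.8 ± 3.74 and its 120-day mean 100.1 ± 82.5, so that its highest stage mean was at 3 days. Of 18 genes of iron, haem and haemoglobin it and BPGM, which red cells also use, were the 2 called. HBB, a haemoglobin chain, read 228, 167 and 205 and then 327, 188 and 231, with overlap, and ALAS2, the haem-making enzyme of red cell precursors, read 526, 427 and 388 and then 519, 411 and 417.

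Markers of other cell types gave few calls. Of 18 endothelial genes 1 was called, VEGFA, a growth factor for vessels that muscle fibres also make. It read 621, 633 and 721 and then 1163, 1234 and 1216, an even rise of 0.85 ± 0.16 (adjusted p = 0.0248), kept in 6 of the 12 fits (adjusted p 0.0236 to 0.110) and lost when centred on the hybridization controls (0.0882). Of its 3 other probe sets 1 shared its sign. PECAM1 and CDH5, which define endothelium, had changes of 0.09 and 0.17, and another probe set of CDH5 one of -0.03. Of the 18 endothelial genes 7 had a positive and 11 a negative change, with a median of -0.08 [-0.081 to -0.0079]. GSN, gelsolin, an actin-severing protein kept here in the fibroblast list, read 1136, 1099 and 1341 and then 2541, 2102 and 2669 and rose by 1.02 ± 0.19 (adjusted p = 0.0225), kept in 8 of 12 (adjusted p 0.0133 to 0.0954), with its 1 other probe set called higher. It was the 1 called of 9 in that list, and DCN, decorin, at 0.32 ± 0.21 did not pass. The fibroblast list had 5 positive and 4 negative changes and a median of 0.23 [-0.10 to 0.44, lowest without 60 days replicate 1]. Its score was 0.63 on that array and -0.24 and 0.13 on the other 60-day arrays. NEFL, a neurofilament chain, the 1 called of 8 nerve and junction genes, was dim, at 61.8, 56.2 and 64.6 and then 34.6, 38.1 and 35.4 (-0.52 ± 0.10, adjusted p = 0.0270), kept in 7 of 12 (adjusted p 0.0301 to 0.107). Of those 8 genes 2 had a positive and 6 a negative change, with a median of -0.25 [-0.26 to -0.19]. The lists of adipocytes (14 measured), smooth muscle and pericytes (11), immune cells (28) and tissues other than muscle (8) had 0 called by limma, and 4, 2, 2 and 0 at an unadjusted p under 0.05. ADIPOQ, the fat cell hormone adiponectin, read 10.04, 13.2 and 15.5 and then 263, 25.4 and 32.2. The ages did not overlap, but 60 days replicate 1 was far above the rest. The summed intensity of the adipocyte list was 5225 to 7123 at 3 days and 6985 to 7649 at 60 days. It had 11 positive and 3 negative changes and a median of 0.28 [0.049 to 0.41, highest without 60 days replicate 1]. The score of the adipocyte list was 0.23, 0.34 and 0.01 on 60 days replicates 1 to 3.

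**Figure D4:**
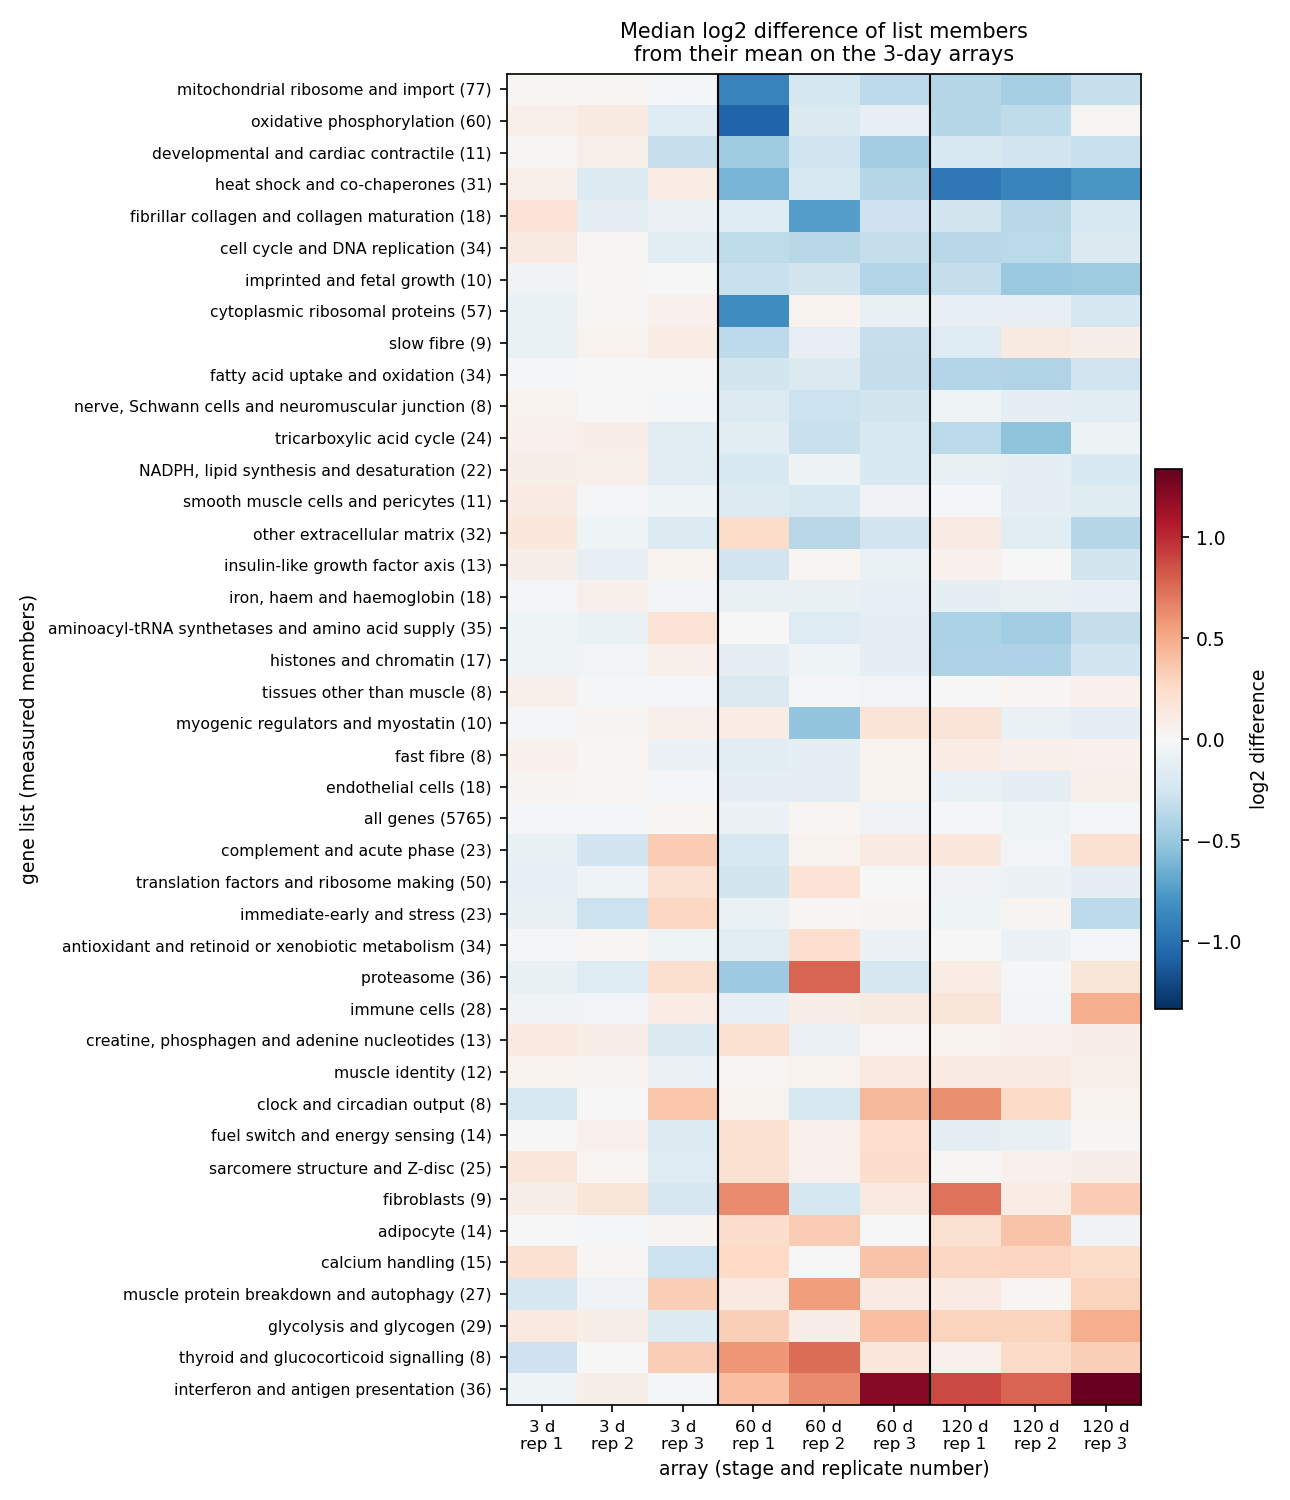
Median log2 difference of the members of each list from their mean on the 3-day arrays (colour, in log2 units), for the 9 arrays after birth (columns) and 41 lists and all genes (rows, with the number of measured members). 60 days replicate 1 is lowest for oxidative phosphorylation (-1.07), the mitochondrial ribosome and import (-0.90) and cytoplasmic ribosomal proteins (-0.83), and the interferon list is above 0 on all 60-day and 120-day arrays.

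Interferon-induced genes had mostly positive changes, but the brightest probe set was called for no gene of that list. Of 36 measured genes of interferon response and antigen presentation 30 had a positive change, with a median of 0.78 [0.56 to 0.89], the highest of the 41 lists. For 18 of them every 60-day array was above every 3-day array, where 8.93% of all genes were so. By limma 0 were called and 9 reached an unadjusted p under 0.05, 7 of them higher. RSAD2, which blocks the budding of viruses, read 15.7, 20.1 and 16.1 and then 105, 111 and 249.8 and missed the threshold (2.11 ± 0.48, adjusted p = 0.0525). IFI44L read 72.1, 90.9 and 119 and then 448, 529.6 and 473 (2.15 ± 0.63, adjusted p = 0.113), and OAS1, an enzyme that senses double-stranded RNA, read 25.8, 98.5 and 54.9 and then 199.6, 269.7 and 291 (1.85 ± 0.50, adjusted p = 0.0956). The 5 genes plotted by array were chosen after their values were seen. The 2 brightest members of the list were B2M and SLA-2. B2M read 3645, 3857 and 4007 and then 1892, 3848 and 3504 (-0.38, adjusted p = 0.444). Its other probe sets ranged from -1.90 to 0.72, with no call. SLA-2 had changes of 0.36 to 0.86 over the 12 fits with 1 array left out, and it was not called either. The arrays of a stage did not stand together in every stage. Fetal replicate 3 had a list score of 1.90 where the other fetal arrays had -0.40 and -0.49, and this spread enters the fit. The genes of the major histocompatibility complex in the list, named SLA in pigs, resemble each other in sequence, and their probe sets may share transcripts.

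**Figure D5:**
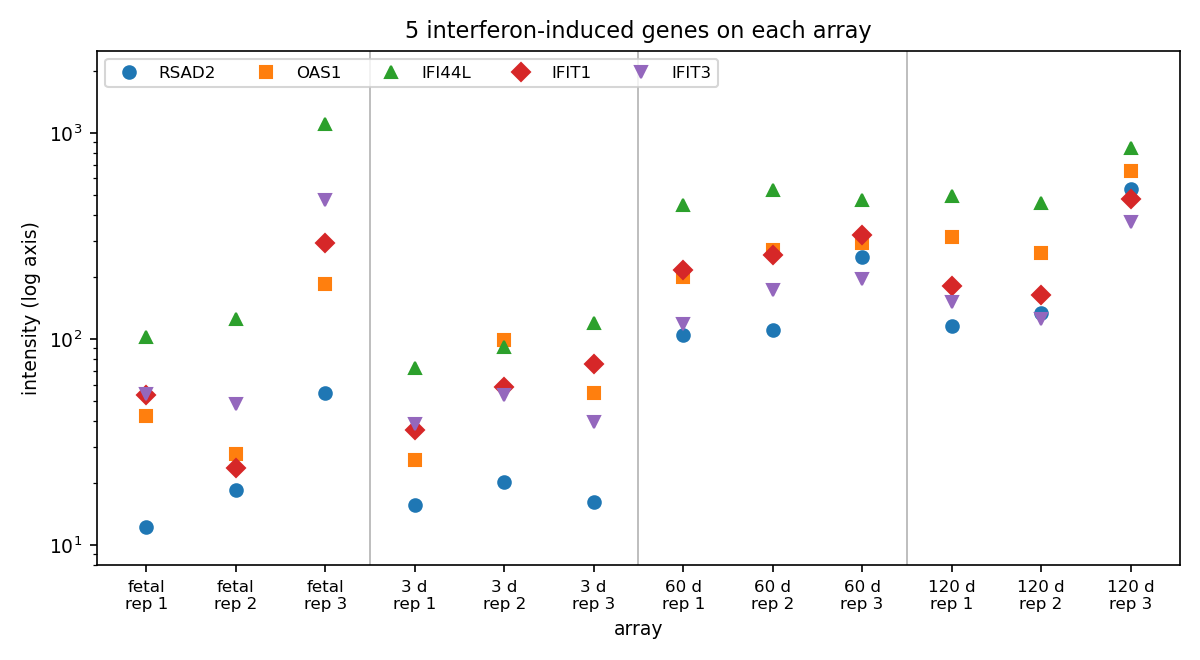
Intensity (log axis) of RSAD2, OAS1, IFI44L, IFIT1 and IFIT3, all induced by interferon, on each of the 12 arrays. All 5 genes are higher on every 60-day array than on any 3-day array, and fetal replicate 3 is above the other fetal arrays.

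Markers of immune cells, measured beside these genes, gave no call, and their part in the interferon values was not tested. The summed intensity of the 28 measured members was 2242 to 3369 at 3 days and 2249 to 3961 at 60 days, with 16 positive and 12 negative changes. PTPRC, the surface phosphatase of all white cells, read 29.0, 27.7 and 34.0 and then 26.0, 31.1 and 34.9, below the array medians throughout. CFB, complement factor B, the 1 called of 23 genes of complement and the acute phase, fell from 314, 239 and 503 to 131, 137 and 140.3 (-1.19 ± 0.24, adjusted p = 0.0321), kept in 5 of the 12 fits (adjusted p 0.0304 to 0.0987). Its 1 other probe set did not pass limma's test (-0.68, adjusted p = 0.260).

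The other called genes fell outside the lists. ZNF385D, a zinc finger gene, read 543, 441 and 451 and then 74.3, 59.8 and 82.8 (-2.42 ± 0.20, adjusted p = 0.000580), and its 1 other probe set, at -0.30, missed the threshold. SERHL2, a serine hydrolase-like gene, changed by -1.72 ± 0.38 (adjusted p = 0.0450), kept in 4 of the 12 fits (adjusted p 0.0239 to 0.162). Among the largest rises, PDZRN3, a ubiquitin ligase of the neuromuscular junction and of myoblast differentiation, read 218, 253 and 130.3 and then 655, 549 and 510.1 (1.46 ± 0.25, adjusted p = 0.0178), lost without 3 days replicate 1 or 60 days replicate 1 (adjusted p 0.0186 to 0.0605). AKAP7, an anchor of protein kinase A, CCPG1, an autophagy receptor of the endoplasmic reticulum, FAM69A, and RAD1, of the DNA damage clamp, rose by 1.42, 1.404, 1.43 and 1.49. They kept the call in 7, 5, 4 and 1 of 12 (adjusted p 0.0179 to 0.0715, 0.0198 to 0.160, 0.0282 to 0.133 and 0.00353 to 0.164). The 1 other probe set of FAM69A, at 0.16, missed the threshold. RAD1 read 19.4, 34.2 and 110.5 at 3 days, with replicate 3 high, and 196, 141 and 165 at 60 days.

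The following genes were named after their values were seen. STAMBPL1, a deubiquitinase, read 41.7, 40.5 and 40.6 and then 102, 94.2 and 107, both groups tightly spaced (0.98 ± 0.13, adjusted p = 0.00436). WWP1, a ubiquitin ligase, read 151, 125 and 145 and then 563, 278 and 423 and rose by 1.402, and CHMP1B, of the membrane-cutting ESCRT complex, by 1.20, kept in 8 and 3 of the 12 fits (adjusted p 0.0127 to 0.0990 and 0.0379 to 0.176). CHURC1, a zinc-binding factor, rose by 1.35 and its 1 other probe set was called higher, and ATL2, an atlastin that fuses membranes of the endoplasmic reticulum, rose by 1.23, kept in 8 and 7 of 12 (adjusted p 0.0133 to 0.0987 and 0.0152 to 0.0868). PDE4C, a cyclic AMP phosphodiesterase, rose by 1.20 and KCNIP2, a potassium channel subunit, by 1.26, kept in 7 and 7 of 12 (adjusted p 0.0124 to 0.126 and 0.0118 to 0.133). KCNIP2 was dim, at 6.60, 12.6 and 19.5 and then 49.5, 48.8 and 84.1. CHPT1, which makes phosphatidylcholine, rose by 0.90 and NSDHL, of cholesterol synthesis, fell by 0.68, kept in 2 and 7 of 12 (adjusted p 0.0312 to 0.166 and 0.0137 to 0.0993). The probe set of LOC102157641, a gene with a locus name only, read 224, 171 and 188 and then 83.5, 84.9 and 102 and fell by 0.95 on the log2 scale.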

How the data were processed

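RNA of the longissimus dorsi was measured with 1 Affymetrix porcine array per sample, 3 per stage at 65 days post coitus and 3, 60 and 120 days after birth. The deposited values are linear intensities, 1 per probe set, which the authors obtained with GCOS 1.4, per the submitters' processing notes. How probe values were summarised, corrected for background and scaled is not given in the sources used here, so absolute levels depend on an unknown scale. Arrays have no read depth, and their number limits the precision.

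Values were taken as log2(intensity + 21), and folds understate the change of dim probe sets. After removal of 124 controls, a probe set was kept where it exceeded the 40th percentile of its own array on at least 3 arrays (16166 of 23999). limma 3.58.1 in R 4.3.3 fitted 1 mean per stage to all 12 arrays with a variance trend (8 residual and 4.26 prior degrees of freedom). The change is the 60-day minus the 3-day mean, p-values were adjusted by the Benjamini-Hochberg method over all kept probe sets, and every adjusted p in the text is limma's at n = 3 against 3. The fit was checked on simulated data. Tables and figures used Python 3.11.15, pandas 2.3.3, NumPy 2.4.6 and matplotlib 3.10.9.

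The platform annotation gave 1 symbol to 10069 probe sets, several to 198 and none was listed for 13732. Of those with 1 symbol 9961 were found in RefSeq by Entrez number. The brightest probe set stands for a gene.

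The rule for naming genes gave 114, and not all of its uncalled genes are described in the text. It took the 15 largest called rises and falls, and up to 5 called members per list with any that went against the rest. It also took the 2 brightest members of lists without calls, and the 45 measured members of a fixed list of 59. Of the called genes 42 lay outside this rule, and those of them that are named, with some uncalled genes, were chosen after their values were seen. The members and the 41 lists were chosen with earlier results of these data known. The arrays were not treated as paired by replicate number (closing section), and nothing beyond the labels says how animals were chosen. Alternatives were other pseudocounts, filters, normalizations, variance models, array weights, a replicate block, a 2-fold minimum, the mean of a gene's probe sets, the 6 arrays alone, and each array left out. No sequence or coordinate was used here.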

Additional observations from a re-analysis of the deposited data

How the results depend on the processing

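The 87 called genes kept their direction under each of the 27 alternatives that gave them a value (82 of the 87 under the filter at the 60th percentile, all under the others), and 4 (ACOT7, MIPEP, STAMBPL1 and ZNF385D) kept the call under every one except the test against a minimum of 2-fold. Of 247 called probe sets (127 higher, 120 lower), leaving out 1 array gave 75 to 297 (34 to 155 higher, 34 to 146 lower). Array weights gave 926 (478 higher, 448 lower), the 6 arrays compared alone 39 (26 higher, 13 lower), and the hybridization controls 61 higher. The cause of these shifts was not tested. Against a minimum of 2-fold limma called 0 (0 higher, 0 lower), with 66 at an unadjusted p under 0.05. Where 1 value stood for a gene, so that fewer features were tested, the brightest probe set gave 82 (39 higher, 43 lower) and the mean of the probe sets 88 (37 higher, 51 lower). The deviations of same-numbered arrays of the 2 ages from their stage means had correlations of 0.19, -0.23 and -0.21. With 3 arrays a stage these cannot settle whether the numbers pair the arrays. With the replicate number as a block 161 were called, 88 higher and 73 lower. Of 103 named genes without a call, 27 were called under some alternative and 26 took the opposite sign under some, with adjusted p above 0.05 except as stated. AMY2, an amylase whose copies share sequence, was the exception: the mean of its probe sets gave 1.93 (limma adjusted p = 0.00528). The cause was not tested for the values that follow. With quantile normalization the value was 0.17 for TNNC1, 0.11 for EIF1, -0.0233 for PER1, -0.0367 for NFIL3 and -0.0437 for ALAS2. With centring on the array median the value was -0.0138 for CKM, -0.00612 for ALAS2 and -0.00591 for PTPRC. Centred on the hybridization controls the value was -0.0436 for FHL1, -0.0396 for SUCLG1, -0.0684 for PSMA6, -0.0088 for BTG1, -0.0579 for PER1, -0.0582 for NFIL3, -0.0559 for MYH7, -0.0905 for CKM, -0.000718 for PECAM1, -0.0828 for ALAS2 and -0.0826 for PTPRC. With array weights the value was 0.0862 for EIF1, 0.0274 for HSP90AA1, 0.28 for AMY2, -0.063 for MYH7, -0.00463 for CKM and -0.00364 for ALAS2. With the mean of the probe sets of a gene the value was -0.0862 for PER1 and -0.29 for IGF1. Over the 12 fits with 1 array left out the log2 change ranged as follows for the genes whose sign turned: TNNC1 -0.16 to 0.14, FHL1 -0.00387 to 0.0864, SUCLG1 -0.0289 to 0.12, PNPLA2 -0.17 to 0.55, MYF6 -0.30 to 0.65, SPARC -0.30 to 0.12, EIF1 -0.13 to 0.11, PSMA6 -0.38 to 0.31, PSMA7 -0.72 to 0.23, TXNIP -0.0407 to 0.32, BTG1 -0.32 to 0.55 and PER1 -0.0642 to 0.13. The same range was, for the rest, NFIL3 -0.65 to 0.66, ACTA2 -0.23 to 0.0578, AMY2 -0.39 to 0.53, MYH7 -0.085 to 0.21, LPL -0.0429 to 0.73, CKM -0.0269 to 0.0406, CKMT2 -0.47 to 0.11, LOX -0.23 to 0.35, ARNTL -0.0848 to 0.66, PECAM1 -0.0575 to 0.25, ALAS2 -0.094 to 0.13 and PTPRC -0.0487 to 0.0772. Of 1107 recomputed list medians 48 moved beyond the spread between replicates, in 19 lists. With 3 arrays a stage, an exact permutation test of 3 against 3 cannot go below p = 0.1.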

Other observations

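For 21 genes another probe set was called while the brightest was not. Myelin basic protein, MBP, a component of the nerve sheath, had a brightest probe set at 0.51 without a call (limma adjusted p = 0.264). It had 3 other probe sets, and only those given next were called. Another probe set read 15.4, 15.8 and 12.7 at 3 days and 95.7, 125 and 76.0 at 60 days (1.73, adjusted p = 0.00263), called in 12 of 12 fits with 1 array left out. A further one read 8.02, 12.3 and 9.55 and then 46.1, 41.4 and 48.8 (1.10, adjusted p = 0.0135), called in 11 of 12. All 60-day arrays were above all 3-day arrays on both.

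AMY2, an amylase that digests starch, was on the list of tissues other than muscle. Its brightest probe set read 1769, 1421 and 1841 and then 674, 2443 and 2376 (-0.08, no call). Another read 254, 296 and 116 at 3 days and 1889.7, 1319.6 and 1784 at 60 days (2.87, adjusted p = 0.00251), and a further one gave 2.99 (adjusted p = 0.00223). Both were called in 12 of 12 fits with 1 array left out. Amylase copies resemble each other in sequence, and which copy a probe set reads was not tested.

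Of the 247 called probe sets 116 had no single symbol in the annotation and are not named here.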
